A study of Homo sapiens with 8 samples.

Results

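Histone genes named H1-, H2AC, H2BC, H3C or H4C with a number were followed in 4 human prostate cancer cell lines after depletion of DNA-PK, a kinase that acts in the repair of broken DNA ends. The members were found by their current gene symbols. Of 22395 genes with a probe set of their own, 34 matched. They comprised 10 linker histone (H1) genes, 8 H2A genes, 14 H2B genes, 1 H3 gene and 1 H4 gene. Chromosome 6 carried 22 of them and chromosome 1 carried 8. H1-10 and H1-8 on chromosome 3, H1-7 on chromosome 12 and the pseudogene H1-9P on chromosome 17 matched by name but lie outside the histone clusters, and H1-10 is known to be expressed independently of replication. H2AC2P and H2BC20P are pseudogenes as well.

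The tested cells were C4-2B, DU145, PC3 and VCaP transfected with siRNA against DNAPK and harvested after 48 hours. The controls were the same lines with a non-targeting siRNA. C4-2B descends from LNCaP. DU145, PC3 and VCaP came from metastases, and VCaP carries a fusion of TMPRSS2 with ERG. Each line gave 1 array per siRNA, 8 arrays in all. The spread behind the p-values is therefore that of the siRNA difference between lines, and not between cultures of a line. The values are log2 RMA signals, in which the distributions of all arrays were made alike. A difference is therefore relative to the bulk of the transcripts, and signals of different probe sets are not compared.

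Replication-dependent histone genes supply the proteins that package newly copied DNA. Their transcription is driven in S phase by the coactivator NPAT, and most of their mRNAs end in a stem-loop bound by SLBP rather than in a poly(A) tail. When DNA synthesis stops, these mRNAs are degraded in a process that needs UPF1. Many genes of the family encode identical or nearly identical proteins, so a probe set can also take up RNA of a close copy, and the values of any single member are uncertain for that reason.

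The siRNA target was lower in every line. PRKDC, which encodes the catalytic subunit of DNA-PK, read 6.76, 8.08, 7.17 and 9.18 in the siDNAPK arrays of C4-2B, DU145, PC3 and VCaP, against 9.29, 9.17, 9.17 and 9.80 in their controls. That left 17.4%, 47.2%, 25.1% and 65.0% of the control signal in these lines. The mean difference was -1.56 ± 0.86 (SD, n = 4 lines), with a limma adjusted p of 0.688 over all genes (unadjusted p = 8.37e-04). ERG read 8.65 in siDNAPK and 8.57 in control VCaP cells and at most 3.56 on the other arrays. KLK3, which encodes PSA, read 10.24 and 10.12 in the siDNAPK and control arrays of C4-2B but only 4.75 and 4.46 in those of VCaP, a line known to express it. Of 5 immune markers, 4 lay below the filter, with PTPRC, the marker of all leukocytes, at 1.33 to 2.02 in siDNAPK arrays and 1.30 to 1.61 in controls. CD68, a macrophage marker that other cells express too, read 5.04, 7.94, 7.06 and 4.60 in siDNAPK arrays of C4-2B, DU145, PC3 and VCaP, against 4.99, 7.73, 7.40 and 4.61 in controls.

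Start regions of 3 members are shown because the results return to these genes or to the neighbours that share their start region. The windows run from 250 bases before to 50 bases after the start in RefSeq, assembly GRCh38.p14, on the minus strand. Capitals mark the TATA box letters TATAA, the CCAAT box and the octamer ATGCAAAT, each read on either strand, with overlapping matches joined.
H2AC14, chr6:27814728-27815027, shared with H2BC14 on the other strand: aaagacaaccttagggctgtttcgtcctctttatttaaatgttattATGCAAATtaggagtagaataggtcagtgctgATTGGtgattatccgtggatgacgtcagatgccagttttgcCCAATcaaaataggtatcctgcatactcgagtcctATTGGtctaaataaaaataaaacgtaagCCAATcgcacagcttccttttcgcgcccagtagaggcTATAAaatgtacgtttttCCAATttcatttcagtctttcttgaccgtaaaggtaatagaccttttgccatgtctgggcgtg
H2BC21, chr1:149886633-149886932, shared with H2AC20 on the other strand: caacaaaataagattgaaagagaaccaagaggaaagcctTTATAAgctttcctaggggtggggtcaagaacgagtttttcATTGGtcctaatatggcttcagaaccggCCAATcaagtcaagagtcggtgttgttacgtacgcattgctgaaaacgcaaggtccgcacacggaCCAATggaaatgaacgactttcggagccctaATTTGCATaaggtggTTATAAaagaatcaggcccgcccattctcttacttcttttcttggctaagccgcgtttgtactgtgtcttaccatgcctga
H1-5, chr6:27867539-27867838: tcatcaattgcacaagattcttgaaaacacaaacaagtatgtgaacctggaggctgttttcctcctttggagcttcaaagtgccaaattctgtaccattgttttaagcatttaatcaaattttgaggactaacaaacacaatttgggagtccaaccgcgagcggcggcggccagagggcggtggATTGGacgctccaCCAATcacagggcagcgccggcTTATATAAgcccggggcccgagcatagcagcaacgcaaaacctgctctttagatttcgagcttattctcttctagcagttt

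H2AC14 and H2BC14 start 245 bases apart and run away from each other, and H2BC21 and H2AC20 start 236 bases apart in the same way. H2AC1 with H2BC1 (215 bases) and H2AC25 with H2BC26 (230 bases) make 4 such pairs among the members. RefSeq windows were found for 30 of the 34 members, 33 windows in all. TATAA or its reverse complement TTATA was present in 28 of 33 (84.8%), against 20.4% of 35116 windows of the same length. CCAAT, or its reverse complement ATTGG, was present in 30 of 33 (90.9%), against 34.6%. The octamer ATGCAAAT, or its reverse complement ATTTGCAT, was present in 15 of 33 (45.5%), against 1.77%. It was found in 5 of 6 H2A windows and 10 of 15 H2B windows but in 0 of 10 H1 windows. A shared window counts for both of its genes, and these matches describe letters, not occupied sites. H1-8, H2BC5 and H2BC12 each count with a further window, which for H2BC5 and H2BC12 covers almost the same bases.

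No histone gene passed the test of siDNAPK against control over the 4 lines. With a filter that set aside genes at or below the 25th percentile of mean signal (2.51), 25 of the 34 members were tested, and 0 passed an adjusted p of 0.05 in the limma fit with the line as a block. The background was 0% of 16796 genes. At an unadjusted p under 0.05 the count was 0 of 25 members, against 7.19% of all genes. The members' median difference was -0.01, against 0.03 for all genes. Only H2BC12 kept the same sign in 4 lines, 1 of 25, against 17.4% of all genes. Without the filter, 3 of 34 members did, against 16.9%. Adjusted p-values of the 25 members ran from 0.718 to 0.994, and their 95% intervals for the mean difference reached from -1.53 to 0.87, so moderate differences are not excluded by these arrays.

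The 9 members below the filter were H1-1, H1-3, H1-7, H1-9P, H2AC12, H2AC25, H2AC2P, H2BC1 and H4C7. Their signals lay between 1.14 and 3.80 in siDNAPK arrays and between 1.02 and 3.24 in controls. H2AC12 held the highest value, 3.80 in siDNAPK C4-2B cells against 2.68 in the control. All its other arrays lay between 2.03 and 2.28.

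**Figure D1:**
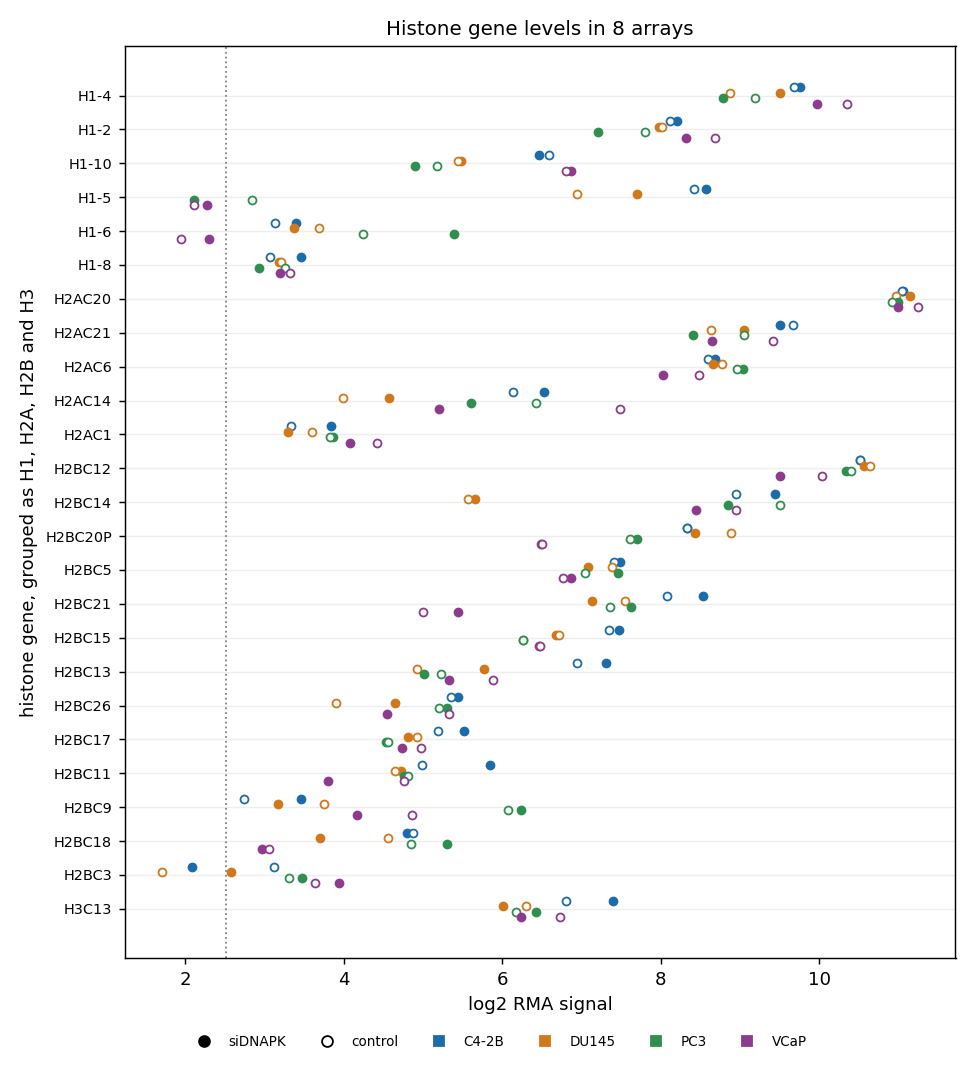
Log2 RMA signal (x axis) of the 25 histone genes above the filter (y axis, grouped by class) in 8 arrays. Filled points are siDNAPK arrays, open points are controls, colours are lines, and the dotted line is the filter at 2.51. Points of 1 colour mostly lie together, and H1-5, H2BC14 and H2BC21 have lines far apart.

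Within the lines, the members moved apart from each other, and VCaP stood lowest. In C4-2B the members' median difference was 0.12, against 0.04 for all genes, and 20 of 25 were above 0, against 57.1% of all genes. In DU145 the median was -0.04, against 0.05, with 11 of 25 above 0, against 56.9%. In PC3 it was 0.01, against 0.04, with 13 of 25 above 0, against 55.5%. In VCaP it was -0.34, against -0.0032, with 6 of 25 above 0, against 49.7%. Over all 34 members the medians were 0.09, -0.02, 0.02 and -0.18 in C4-2B, DU145, PC3 and VCaP. With 1 array per siRNA in a line, these differences have no replicate check, and variation from culture to culture and the siRNA cannot be told apart.

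Counts past 0.5 on the log2 scale lay mostly above 0 in C4-2B and DU145 and below 0 in PC3 and VCaP. In VCaP, 8 of 25 members were below -0.5, against 12.8% of all genes, and 0 of 25 were above 0.5, against 10.5%. DU145 had 6 of 25 above 0.5, against 5.89%, and 2 of 25 below -0.5, against 5.55%. PC3 had 1 of 25 above 0.5, against 6.08%, and 5 of 25 below -0.5, against 5.22%. C4-2B had 3 of 25 above 0.5, against 4.51%, and 1 of 25 below -0.5, against 3.76%. Past 1, the members were H2BC3 below -1 in C4-2B (1 of 25, against 0.339% of all genes), H1-6 above 1 in PC3 (1 of 25, against 0.53%) and H2AC14 below -1 in VCaP (1 of 25, against 2.42%). The other counts past 1 were 0 of 25, against 0.244% above 1 in C4-2B, 0.304% above and 0.816% below in DU145, 0.542% below in PC3 and 1.29% above in VCaP. In either direction, 8.27%, 11.4%, 11.3% and 23.3% of all genes were past 0.5 in C4-2B, DU145, PC3 and VCaP. VCaP thus had the widest spread over all genes, and it kept most PRKDC signal. The part of either in the histone values was not tested.

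**Figure D2:**
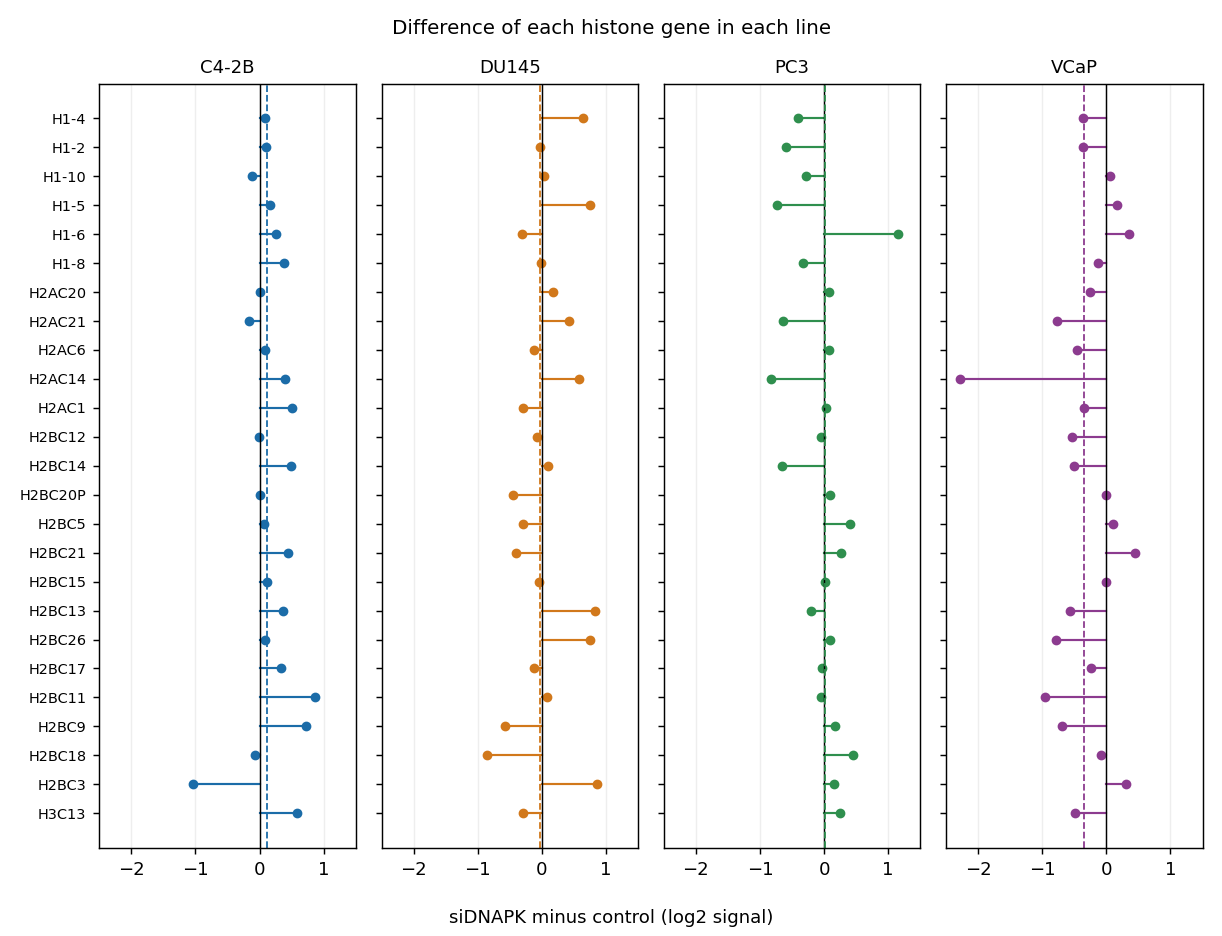
Difference siDNAPK minus control (x axis, log2 signal) of the 25 histone genes above the filter (y axis) in each line. Dashed lines are the members' medians, highest for C4-2B (0.12) and lowest for VCaP (-0.34), and H2AC14 in VCaP is the farthest point at -2.28.

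The linker histones bind DNA between nucleosomes. H1-5, the member whose line means were farthest apart among those with a probe set of their own, read 8.58, 7.70, 2.11 and 2.28 in the siDNAPK arrays of C4-2B, DU145, PC3 and VCaP, against 8.42, 6.94, 2.84 and 2.11 in their controls. C4-2B and DU145 were high and PC3 and VCaP lay near the filter under both siRNAs, while the siDNAPK and control groups overlapped. Its difference was 0.16, 0.76, -0.73 and 0.17 in these lines, a mean of 0.09 ± 0.61 (SD, n = 4; limma adjusted p = 0.929). The siRNA difference in PC3 and VCaP was taken at signals where little can be measured.

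H1-4, a main somatic linker histone, read 9.76, 9.51, 8.79 and 9.98 in siDNAPK cells of C4-2B, DU145, PC3 and VCaP, against 9.68, 8.87, 9.20 and 10.34 in control cells. It was higher in siDNAPK cells of C4-2B and DU145 and lower in those of PC3 and VCaP, and the groups overlapped. H1-2, another somatic form, read 8.21, 7.98, 7.21 and 8.32 in siDNAPK cells, against 8.11, 8.02, 7.80 and 8.68 in control cells. Its difference was -0.59 in PC3 and -0.36 in VCaP and within 0.10 of 0 in C4-2B and DU145, a mean of -0.22 ± 0.31 (SD, n = 4; limma adjusted p = 0.736).

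H1-6 encodes a linker histone known from the testis. It read 3.39, 3.38, 5.39 and 2.30 in siDNAPK arrays, against 3.13, 3.68, 4.24 and 1.94 in controls. PC3 was highest in both groups and had the largest difference, 1.15, the only member above 1 in a line and above the filter. Over the lines its mean difference was 0.37 ± 0.60 (SD, n = 4; limma adjusted p = 0.718). H1-10 read 6.46, 5.48, 4.90 and 6.86 in siDNAPK cells, against 6.59, 5.44, 5.18 and 6.80 in control cells. No line differed by more than 0.28 for H1-10. As a group the 6 H1 members above the filter had medians of 0.13, 0.01, -0.37 and -0.03 in the 4 lines. In PC3, 5 of 6 were below 0, against 7465 of 16796 genes.

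H2A pairs with H2B in the nucleosome. H2AC14 had the largest mean difference of the 25 members. It read 6.53, 4.58, 5.60 and 5.20 in siDNAPK cells of C4-2B, DU145, PC3 and VCaP, against 6.13, 4.0, 6.43 and 7.48 in control cells. The VCaP control was the highest array, and the siDNAPK array of that line kept 20.6% of it, a difference of -2.28. C4-2B and DU145 differed by 0.39 and 0.58 and PC3 by -0.83, so the groups overlapped. Over the lines it was -0.53 ± 1.32 (SD, n = 4; limma adjusted p = 0.769), and without VCaP the mean was 0.05.

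H2BC14, which shares its start region with H2AC14 (first window above), read 9.44, 5.66, 8.85 and 8.44 in siDNAPK cells, against 8.95, 5.56, 9.51 and 8.95 in control cells. DU145 was low under both siRNAs. The differences of H2BC14 were 0.49, 0.09, -0.66 and -0.51, with the same signs in each line as those of H2AC14. H2AC21 read 9.51, 9.05, 8.41 and 8.65 in siDNAPK cells, against 9.67, 8.64, 9.05 and 9.42 in control cells. It was lower with siDNAPK in PC3 and VCaP and higher in DU145, and its mean difference was -0.29 ± 0.54 (SD, n = 4; limma adjusted p = 0.744).

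H2AC20, by contrast, hardly varied. It read 11.05, 11.15, 10.99 and 10.99 in siDNAPK cells, against 11.04, 10.97, 10.92 and 11.24 in control cells. Its mean difference was 0.00 ± 0.19 (SD, n = 4; limma adjusted p = 0.994). H2AC6, one of the genes known to give polyadenylated transcripts too, read 8.69, 8.65, 9.04 and 8.03 in siDNAPK cells, against 8.60, 8.77, 8.96 and 8.49 in control cells. Only VCaP departed by more than 0.12, with -0.46. All 5 H2A members above the filter were below 0 in VCaP, against 8456 of 16796 genes, with a median of -0.46.

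Among the H2B genes, H2BC12 read 10.51, 10.56, 10.34 and 9.50 in siDNAPK cells of C4-2B, DU145, PC3 and VCaP, against 10.52, 10.64, 10.40 and 10.04 in control cells. VCaP was lowest in both groups. The differences were -0.01, -0.07, -0.05 and -0.54, so the shared sign rests on values close to 0 in 3 lines. The mean was -0.17 ± 0.25 (SD, n = 4; limma adjusted p = 0.761).

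H2BC21 shares its start region with H2AC20 (second window above). It read 8.53, 7.14, 7.62 and 5.44 in siDNAPK cells, against 8.08, 7.54, 7.36 and 5.0 in control cells. VCaP was far below the other lines in both groups, whereas H2AC20 showed no such gap. H2BC21 differed by 0.44, -0.41, 0.26 and 0.45 and H2AC20 by 0.01, 0.18, 0.07 and -0.25, with opposite signs in DU145 and VCaP. H2BC21 is known to yield polyadenylated as well as stem-loop transcripts.

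H2BC13 read 7.30, 5.76, 5.02 and 5.32 in siDNAPK cells, against 6.94, 4.93, 5.23 and 5.89 in control cells. Its difference was 0.84 in DU145 and -0.57 in VCaP. H2BC26 read 5.44, 4.65, 5.30 and 4.55 in siDNAPK cells, against 5.35, 3.90, 5.21 and 5.33 in control cells. For H2BC26 as well, DU145 was higher (0.75) and VCaP lower (-0.78) with siDNAPK, and the groups overlapped. H2BC11 read 5.85, 4.72, 4.76 and 3.80 in siDNAPK cells, against 4.98, 4.64, 4.81 and 4.76 in control cells. C4-2B and VCaP moved apart for H2BC11, by 0.86 and -0.96.

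Other H2B genes were lower with siDNAPK in DU145. H2BC18 read 4.80, 3.71, 5.31 and 2.97 in siDNAPK cells, against 4.87, 4.56, 4.85 and 3.05 in control cells. The 3 probe sets of this gene gave -0.86, -0.47 and -0.41 in DU145 and 0.45, 0.26 and 0.34 in PC3. They disagreed in C4-2B, with -0.07, -0.86 and 0.66. H2BC9 read 3.46, 3.17, 6.23 and 4.17 in siDNAPK cells, against 2.74, 3.75, 6.07 and 4.86 in control cells. PC3 was highest in both groups, and DU145 differed by -0.58.

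H2BC5, known to give polyadenylated transcripts as well, read 7.48, 7.09, 7.45 and 6.87 in siDNAPK cells, against 7.41, 7.38, 7.05 and 6.77 in control cells. It was higher in C4-2B, PC3 and VCaP and lower in DU145, with a mean of 0.07 ± 0.29 (SD, n = 4; limma adjusted p = 0.906). The pseudogene H2BC20P read 8.33, 8.43, 7.70 and 6.49 in siDNAPK cells, against 8.32, 8.89, 7.61 and 6.49 in control cells. Only DU145 departed, by -0.45. H2BC3 read 2.09, 2.57, 3.47 and 3.94 in siDNAPK cells, against 3.12, 1.71, 3.31 and 3.64 in control cells. C4-2B differed by -1.04 and DU145 by 0.86, at signals on either side of the filter.

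H3C13, the only H3 gene under the naming rule with a probe set of its own, read 7.40, 6.01, 6.42 and 6.24 in siDNAPK cells, against 6.80, 6.30, 6.18 and 6.72 in control cells. It was higher in C4-2B (0.59) and PC3 (0.25) and lower in DU145 (-0.29) and VCaP (-0.48). The mean was 0.02 ± 0.49 (SD, n = 4; limma adjusted p = 0.987). The remaining members above the filter, H1-8, H2AC1, H2BC15 and H2BC17, had mean differences within 0.03 of 0.

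A separate limma fit, with its own response for each pair of lines, asked whether C4-2B and VCaP responded differently from DU145 and PC3. It called 0 of 25 members, and the background was 0% of 16796 genes. At an unadjusted p under 0.05 the count was again 0 of 25, against 3.70% of all genes. The smallest unadjusted p among the members was 0.0768.

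Levels of the histone genes differed between the lines about as often as those of other genes. The limma F test over lines, with the siRNA as a covariate, called 17 of 25 members at an adjusted p under 0.05, against 62.6% of all genes above the filter. Without the filter it called 18 of 34, against 48% of all genes. The line means ranged over more than 1 for 15 of 25 members, against 44.9%, and over more than 2 for 9 of 25, against 15.5%. The 2 arrays of a line carry different siRNAs and are not repeat cultures, so these tests measure line differences against the spread of the siRNA response. Of the 17 members, 6 were called under every scaling, filter and probe set alternative that tested them and without each line in turn, namely H1-5, H1-6, H1-10, H2BC9, H2BC20P and H2BC21. Without VCaP, the call was lost for H1-2, H1-4, H2AC6, H2BC3, H2BC12 and H2BC18 (limma adjusted p from 0.0617 to 0.361). Without PC3 it was lost for H1-2, H2AC6 and H2BC17 (0.121 to 0.170), and without C4-2B for H2BC13, H2BC15 and H2BC17 (0.165 to 0.473).

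Set against the mean of the other 3 lines, C4-2B was higher for 11 of 25 members, against 17.8% of all genes, and lower for 1, against 18.8%. DU145 was higher for 2, against 18.2%, and lower for 6, against 18.3%. PC3 was higher for 5, against 18.6%, and lower for 7, against 18.1%. VCaP was higher for 6, against 20.4%, and lower for 8, against 23.4%. In bulk RNA, fewer cells in S phase and less histone mRNA in each such cell cannot be told apart.

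Each line had its own low or high members. H1-5 averaged 8.50 in C4-2B and 7.32 in DU145, but 2.47 in PC3 and 2.19 in VCaP (limma F test adjusted p = 6.01e-06). The means of PC3 and VCaP lie below the filter level, although the PC3 control array read 2.84. H1-5 was thus kept through C4-2B and DU145, and the size of the gap is not measured exactly. H2BC14 was at -3.41 in DU145 (limma adjusted p = 3.7e-05), and without DU145 its F test gave a limma adjusted p of 0.291. H2AC14 was also lowest in DU145, at -1.94 (limma adjusted p = 0.018), and without DU145 its F test gave an adjusted p of 0.83. VCaP was low for H1-5, at -3.90, for H2BC21, at -2.49, for H1-6, at -1.75, for H2BC20P, at -1.72, and for H2BC18, at -1.67. H1-6 read 2.30 and 1.94 in siDNAPK and control VCaP cells, below the filter level, so the size of that gap is not measured exactly. VCaP was lowest in another probe set of H2BC18 too. In the remaining probe set DU145 was slightly lower, at 2.70 and 3.11 in siDNAPK and control cells, against 2.78 and 3.13 in VCaP. PC3 was high for H2BC9, at 2.46, and for H1-6, at 1.85. H2BC13 was highest in C4-2B, at 1.77 (limma adjusted p = 0.0015).

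**Figure D3:**
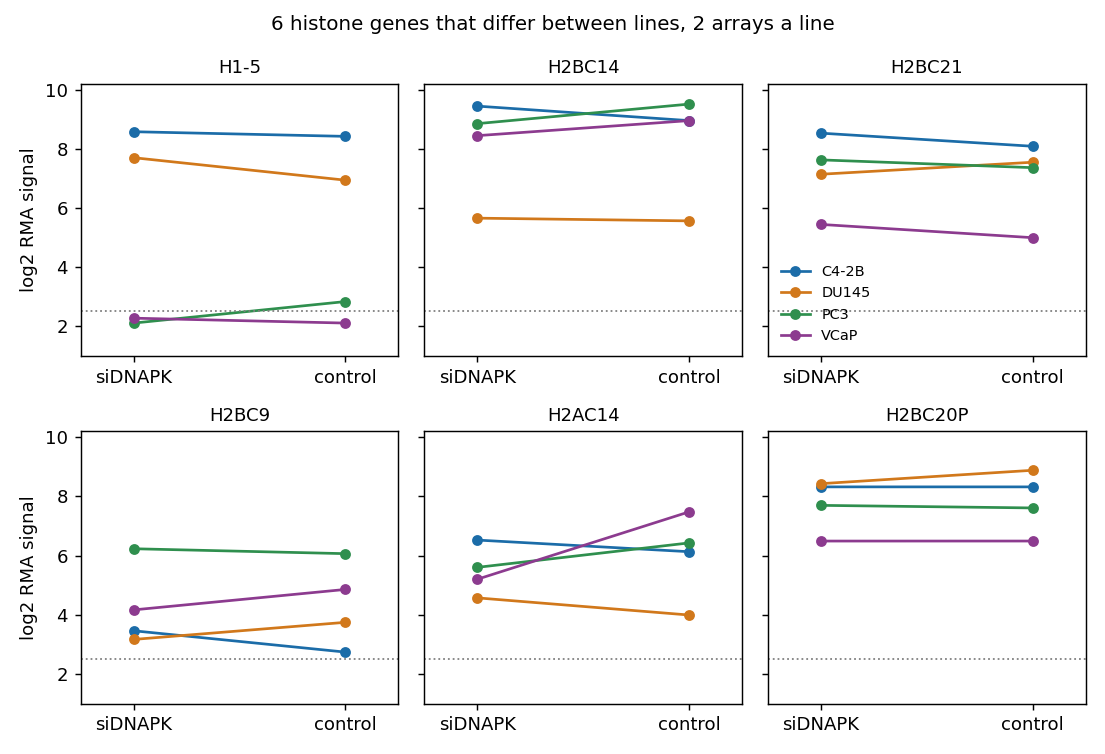
Log2 RMA signal (y axis) of H1-5, H2BC14, H2BC21, H2BC9, H2AC14 and H2BC20P in siDNAPK and control cells (x axis), with 1 line drawn for each cell line and the filter dotted. H1-5 separates C4-2B and DU145 from PC3 and VCaP, H2BC14 is low in DU145, and the H2AC14 lines cross.

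Most H3 and H4 genes could be read only through probe sets annotated to several histone genes. There were 40 such probe sets, 38 with distinct values, and 33 of these lay above the filter (12 H4, 9 H2A, 8 H3, 3 H2B and 1 annotated to H2A and H3). Many of them list the same genes and are not independent. The limma fit called 0 of the 33 for the siRNA, against 0% of all genes. In VCaP their median difference was -0.34, against -0.0032 for all genes. There, 27 of 33 were below 0, against 8456 of 16796 genes, and 13 of 33 were below -0.5, against 12.8% of all genes. For C4-2B, DU145 and PC3 these probe sets had medians of 0.13, 0.07 and -0.10.

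By class, the H2A sets had medians of 0.54, 0.15, -0.11 and -0.52 for C4-2B, DU145, PC3 and VCaP. The 3 H2B sets had 0.29, -0.34, 0.59 and -0.64. All 3 were above 0 in PC3, against 55.5% of all genes, while the medians of the other classes were below 0 there. The H4 sets had 0.19, 0.08, -0.18 and -0.17, and the H3 sets 0.06, -0.07, -0.04 and -0.35 in the same lines. In VCaP, 10 of 12 H4 sets and 7 of 8 H3 sets were below 0, against 8456 of 16796 genes. The extremes included opposite directions: 1 H4 set read 8.29 in siDNAPK VCaP cells against 9.49 in control cells, and another read 7.75 against 6.30. Both list the same number of genes, 14. The levels again differed by line, with 25 of 33 called by the F test, against 62.6%. The set with the widest range of line means (8.62), an H3 set annotated to 10 genes, averaged 9.91, 8.82, 1.80 and 10.42 in C4-2B, DU145, PC3 and VCaP. Among the H3 sets above the filter annotated to 10 genes, PC3 was near the floor of the array for that set alone. The others averaged 6.23, 6.46, 7.57, 5.55, 6.50 and 3.50 in PC3. Below the filter, H3 sets annotated to 10 genes averaged 1.41 and 2.06 in PC3.

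**Figure D4:**
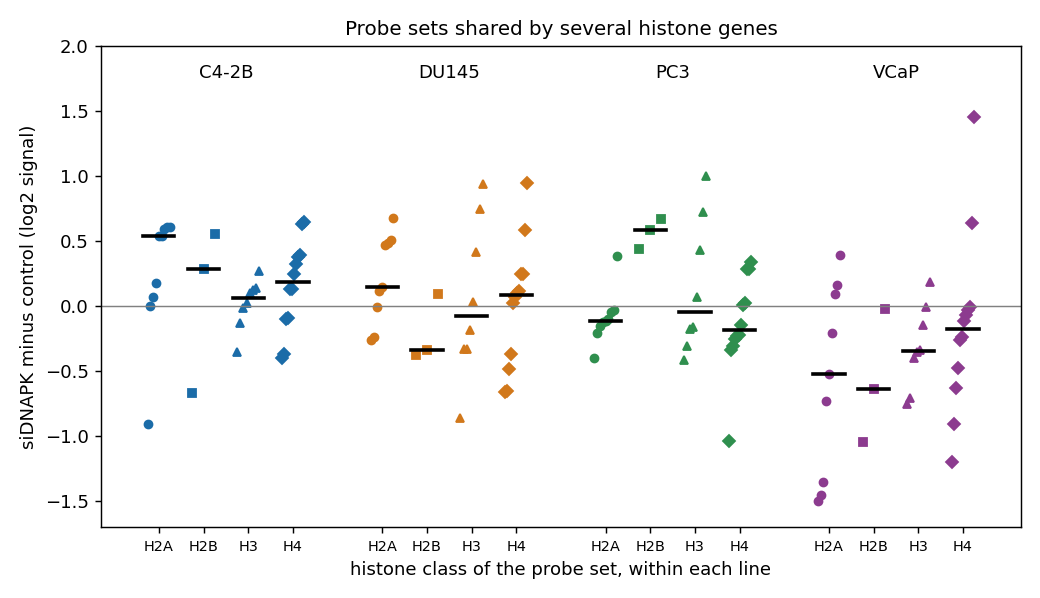
Difference siDNAPK minus control (y axis, log2 signal) of the probe sets annotated to several histone genes, by class and line (x axis). The set annotated to H2A and H3 is not drawn, and bars are medians. In VCaP the medians of all 4 classes lie below 0, at -0.52 for H2A, -0.64 for H2B, -0.35 for H3 and -0.17 for H4.

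The genes that make and degrade histone mRNA gave no call either. Of 13 genes for histone gene transcription above the filter, 0 passed, against 0% of all genes, and the median of the mean differences was 0.09. NPAT, the coactivator, read 7.81, 8.31, 8.25 and 8.11 in siDNAPK cells, against 7.96, 8.19, 8.32 and 8.26 in control cells, within 0.15 of each other in every line. NFYB, a subunit of the factor that binds CCAAT, was below 0 in each line, with a mean of -0.29 ± 0.12 (SD, n = 4; limma adjusted p = 0.688). The other subunits did not share that sign. NFYA was above 0 in each line, at 0.18 ± 0.12 (SD, n = 4; limma adjusted p = 0.728), and NFYC averaged 0.16 ± 0.42, above 0 in all lines but VCaP. CCNE2, an E-type cyclin, differed by 1.10 in VCaP and by -0.18 in PC3, and its mean was 0.41 ± 0.56 (SD, n = 4; limma adjusted p = 0.691).

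For histone mRNA processing and decay, 0 of 23 genes passed and the median was 0.06. SLBP, the stem-loop binding protein, read 8.39, 8.99, 7.62 and 8.52 in siDNAPK cells, against 8.37, 8.70, 7.67 and 8.18 in control cells. It differed by 0.03, 0.30, -0.05 and 0.34 in C4-2B, DU145, PC3 and VCaP. UPF1, the helicase of histone mRNA decay, was above 0 in each line, with a mean of 0.28 ± 0.11 (SD, n = 4; limma adjusted p = 0.688). DCP2, a decapping enzyme, was below 0 in each line, at -0.39 ± 0.29 (SD, n = 4; limma adjusted p = 0.688). CSTF2, a 3′ end processing factor, was above 0 in each line by 0.19 to 0.28. LSM11, a subunit of the U7 particle that cuts histone pre-mRNA, averaged 0.24 ± 0.37 and differed by 0.73 in DU145.

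Of 20 histone chaperones, 0 passed and the median was 0.08. ASF1B, which hands H3 and H4 to the assembly factors, differed by 0.56 and 0.64 in C4-2B and DU145 but by -0.24 and -0.52 in PC3 and VCaP. MMS22L and TONSL, partners in replication fork repair, had means of -0.28 and 0.27. The chaperones NAP1L1, for H2A and H2B, and ASF1A, for H3 and H4, had means of 0.24 and 0.17. Of 10 replacement histones, many of which are also made outside S phase, 0 passed. The median was -0.04 and 3 means were above 0, against 56.4% of all genes. H1-8 and H1-10 belong to this list too. H3-5, an H3 form, had the mean difference of largest size, -0.55 ± 0.65 (SD, n = 4; limma adjusted p = 0.688), at signals of 1.64 to 3.29 in siDNAPK arrays and 2.53 to 3.53 in controls. It was below 0 in all lines but PC3. H2AP averaged 0.17 ± 0.29. H2AX, the H2A form phosphorylated at DNA breaks, was above 0 in each line, at 0.20 ± 0.08 (SD, n = 4; limma adjusted p = 0.694).

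The S-phase genes were set beside the histone genes because histone mRNA is made in that phase. Of 41 S-phase genes, 0 passed over the lines. For C4-2B, DU145, PC3 and VCaP their median differences were 0.15, 0.46, -0.19 and 0.11, against 0.04, 0.05, 0.04 and -0.0032 for all genes. The numbers above 0 were 33, 41, 12 and 26 of 41, against 57.1%, 56.9%, 55.5% and 49.7% of all genes. The histone members' medians in these lines were 0.12, -0.04, 0.01 and -0.34. GINS4, TIPIN and RPA2, which act at replication forks, were above 0 in each line, RPA2 by only 0.01 in PC3. Their means were 0.38, 0.39 and 0.37 (limma adjusted p = 0.688 each). Most genes named from the lists were picked for large mean differences, which favours a shared sign. Of all genes, 17.4% kept the same sign in 4 lines. The part of cell cycle position in the histone values was not tested.

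**Figure D5:**
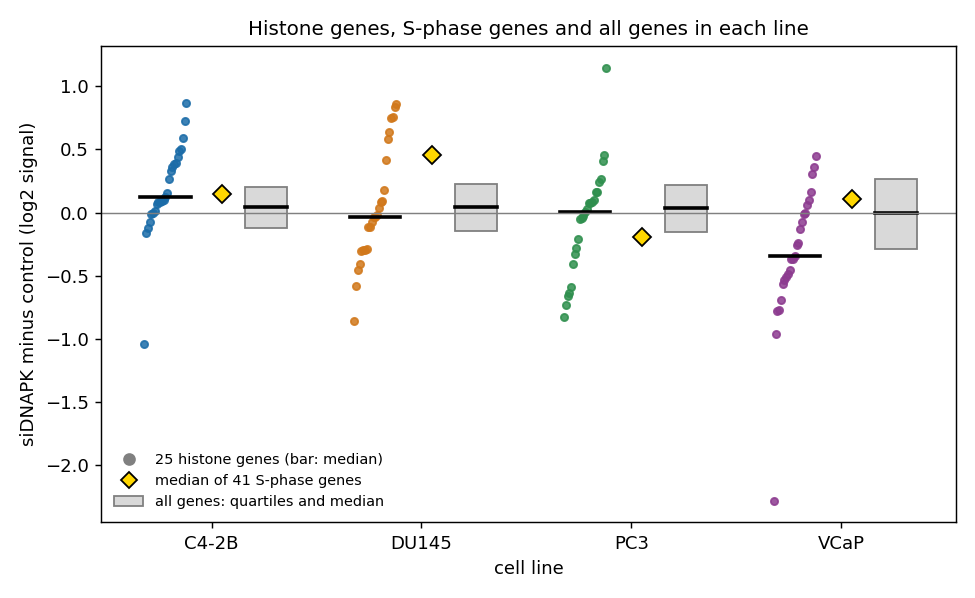
Difference siDNAPK minus control (y axis, log2 signal) in each line (x axis). Points are the 25 histone genes with their median as a bar, diamonds are medians of 41 S-phase genes, and boxes are quartiles and medians of all genes. In VCaP the histone median is -0.34 and the S-phase median 0.11.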

How the data were processed

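The authors deposited a log2 signal for every probe set, made with oligo and RMA per the submitters' processing notes, without versions. Total RNA (400 ng) was labelled with the Affymetrix WT Plus kit, per the labels' protocols. Precision is limited by the number of arrays. Array medians lay between 2.94 and 2.99.

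Of 53617 probe sets, 23871 had 1 gene symbol in the platform annotation, 1842 had several and 27904 were unnamed here. Symbols were updated through RefSeq (GRCh38.p14). Each gene was read from its probe set of highest mean signal. RefSeq lists 91 symbols under the naming rule. Of these, 41 lay only in probe sets of several symbols and 16 were not analysed here. The antisense gene H1-10-AS1 was left out.

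Differences are siDNAPK minus control. limma 3.58.1 (R 4.3.3) was fitted to 16796 genes with a block for the cell line, and 2-sided p-values were adjusted over all of them by Benjamini-Hochberg. The arrays are paired because both of a pair come from the same cell line. This main fit had 3 residual degrees of freedom, 7.55 with the prior. The fit with separate responses for pairs of lines had fewer residual degrees of freedom.

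Values of all 8 arrays are given for members above the filter among the 6 with the highest signal, the 5 largest mean rises and 5 largest mean falls, the 3 largest differences in each direction in each line and the 6 with the widest range of line means. The 4 genes with the largest mean difference were taken from each of the 5 pathway lists, and NPAT, SLBP, ASF1B and the markers of lines and immune cells were named with their values known. The members and lists were chosen with earlier results of these data known. Alternatives were cyclic loess, median centring, other filters, the mean over probe sets, probe sets of several symbols, no block, the clustered members alone and leaving out each line.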

Additional observations from a re-analysis of the deposited data

Results flagged for a closer look

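In 63 groups of 4 values (siDNAPK arrays, control arrays and differences of 21 named members), 5 held a value that stood apart from the other three by Dixon's criterion. Most of these members were named for large differences or a wide range of line means, and each difference comes from arrays in the other groups. No chance rate is therefore set beside this count. The difference of H2BC12 was lowest in VCaP, at -0.54. The difference of H2BC20P was lowest in DU145, at -0.45. Among control arrays, H2BC14 was lowest in DU145 at 5.56, H2BC26 was lowest in DU145 at 3.90, and H2BC18 was lowest in VCaP at 3.05. In the siDNAPK arrays the same lines read 5.66 for H2BC14, 4.65 for H2BC26 and 2.97 for H2BC18. In another probe set of H2BC18, the control array of DU145 (3.11) was slightly lower than that of VCaP (3.13).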

How the results depend on the processing

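No setting called a histone gene for the siRNA. The fit with no replicate block, which ignores the pairing by line, also gave 0 members, and 63 genes at an unadjusted p under 0.05 against 1208 with the block. With probe sets of several symbols added, the F test over lines called 42 features, against 17 members alone, because more were tested. Those probe sets are not independent, and 25 of 33 of them were called. When a line was left out, the test called 14 to 16 of 25 members. In the main fit 62.6% of all genes were called, and the share in the other fits is not given. The members' median lay between -0.13 and 0.06 when a line was left out, and the median in VCaP between -0.37 and -0.18 over the settings run. PRKDC lay between -1.87 and -1.23 without a line. The F-test call of H2AC14 was lost with no filter (limma adjusted p = 0.0532), and that of H2AC6 with no filter or with median centring (limma adjusted p at most 0.0983). Signals near or below the filter limit H1-5 in PC3 and VCaP, H1-6 in VCaP, H2BC3 and the 9 members set aside.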
